A study of Mus musculus with 15 samples.

Results

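The genes described here are 9 that had been seen low in mouse mammary tumors, followed through every control gland and tumor of a bulk RNA-seq series: Calca, Abcc8, Dkkl1, Msx2, R3hdml, Ptn, Syt9, Sncg and Heph, 9 of the 51826 genes in the expression tables. They were chosen for their measured level in tumors against control mammary glands, so the tumor to gland differences below are given as descriptions, with standard errors and with no test. The difference between tumor classes and the levels of partner and neighbouring genes were not used in that choice, and the relation to fat content of the glands is given as values only.

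The 15 libraries came from 13 mice labelled FVB, in 4 groups, with no age in the labels, and Trim24COE and control mice were aged virgin females. Trim24COE tumors (6) arose in mice carrying a single-copy piggyBac transgene that expresses FLAG-tagged Trim24 once MMTV-Cre has removed a stop cassette, so that the transgene is on in cells, and their progeny, in which the MMTV promoter was active. Of these tumors 3 were labelled carcinosarcoma (64, 567 and 897) and 3 carcinoma (89, 273_5 and 3956), and pathologists' readings differed for tumors 89, 567 and 3956. The control glands (4: 133, 392, 417_3 and 517_3) were whole, disease-free mammary glands of age-matched MMTV-Cre mice, which carry the same Cre. The non-TRIM24 tumors (3: 219, FVB001 and FVB002) arose spontaneously in mice whose genotype is given as unknown, on an FVB background per the labels and FVB or a mixed FVB background per the study, and were labelled carcinoma. They were all sequenced in batch 2, together with a repeat library of gland 133 and one of tumor 3956, and the other 10 libraries formed batch 1.

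The genes encode proteins of several kinds. Calca (calcitonin and, by alternative splicing, calcitonin gene-related peptide), Ptn (pleiotrophin, a heparin-binding growth factor), Dkkl1 (a secreted relative of the Dickkopf Wnt inhibitors) and R3hdml (a secreted-type protein of the CAP superfamily) are ligands or secreted proteins. Msx2 is a homeobox transcription factor of epithelial organs, including the mammary bud and hair follicle. Abcc8 encodes SUR1, the regulatory subunit of ATP-sensitive potassium (KATP) channels, whose pore can be formed by Kcnj11. Syt9 is a synaptotagmin, a membrane protein that couples calcium to vesicle exocytosis. Sncg, gamma-synuclein, is known from adipocytes and peripheral neurons, and Heph, hephaestin, is a membrane ferroxidase that works with the iron exporter ferroportin. A mammary gland is a ductal epithelium embedded in a fat pad, so a bulk library mixes luminal, basal, adipose, vascular and immune RNA.

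Trim24 RNA, transgene included, was at 10.6 to 24.1 TPM in the first libraries labelled Trim24COE, at 14.5 to 22.4 TPM in those of the glands and at 5.34 to 10.04 TPM where tumors were labelled non-TRIM24. In batch 2, with all non-TRIM24 tumors, the repeats of gland 133 and tumor 3956 had 11.1 and 11.49 TPM. Their batch 1 libraries had 14.54 and 16.45 TPM. These TPM did not separate the tumors labelled Trim24COE from glands, and all groups are named as labelled. The fitted Trim24 difference of Trim24COE tumors from glands was -0.24 (SE 0.26, limma adjusted p = 0.557). The paper reported more Trim24 RNA by qRT-PCR and more TRIM24 protein by immunohistochemistry in Trim24COE tumors than in control glands. It described the qRT-PCR result as predicted by its RNA-seq. The libraries differed strongly in fat. The 24 adipocyte markers summed to 33400 and 43300 TPM (transcripts per 1000000, a length-corrected share of each library) in glands 133 and 392, but to 2700 and 2750 TPM in glands 417_3 and 517_3. Krt8, a luminal keratin, was higher in the fat-poor glands, at 1243 and 1290.8 TPM against 158 and 213 TPM in the fat-rich glands. Among the tumors, FVB001 and FVB002 stood apart, with adipocyte sums of 61300 and 30600 TPM, while tumor 219 had 335 TPM and the 6 Trim24COE tumors from 214 to 2510 TPM. Adipoq, the gene of the adipocyte hormone adiponectin, was at 4315 and 1525 TPM in FVB001 and FVB002 and at 3.31 TPM in 219. Results that rest on the non-TRIM24 tumors are therefore given for each tumor. By sum every Trim24COE tumor was below every gland, but single markers differed. Adipoq was at 68.16 and 23.81 TPM in Trim24COE tumors 89 and 273_5, above glands 417_3 and 517_3 (10.15 and 10.75 TPM). The other Trim24COE tumors were below both glands. The listed markers Plin1 and Cidec gave the same order. Lep was at 5.5 and 0.58 TPM in 89 and 273_5, against 1.3 and 0.95 TPM in these glands. Glands 417_3 and 517_3 resembled each other as closely (Pearson r = 0.977 over 15419 genes of log2(TPM + 1)) as the first and repeat libraries of gland 133 (0.965) and tumor 3956 (0.97), which span both batches. They were kept as separate mice, as labelled. Every column summed to 1000000 TPM within rounding, which leaves the read depth out of the values. Standard errors are those between mice, except in the non-TRIM24 fits. There the repeat libraries of gland 133 and tumor 3956 were counted beside the first ones. In bulk samples fewer cells of a type and less RNA per cell cannot be told apart.

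In the Trim24COE tumors all 9 genes lay below every control gland in all 6 tumors, a pattern that 7.2% of the 15196 genes tested had (the members were chosen on this contrast). The values under 1 TPM numbered 34 of the 54 member values in these tumors, whereas each of the 9 genes was at 1 TPM or more in all 4 glands. In the non-TRIM24 tumors 7 of the 9 lay below every gland in all 3 tumors, against 23.9% of 16775 genes. The 2 exceptions were Sncg and Heph, with Sncg above every gland and Heph above or just below the gland range in FVB001 and FVB002, so the description of all 9 as lost in spontaneous tumors went against the data for these genes.

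**Figure D1:**
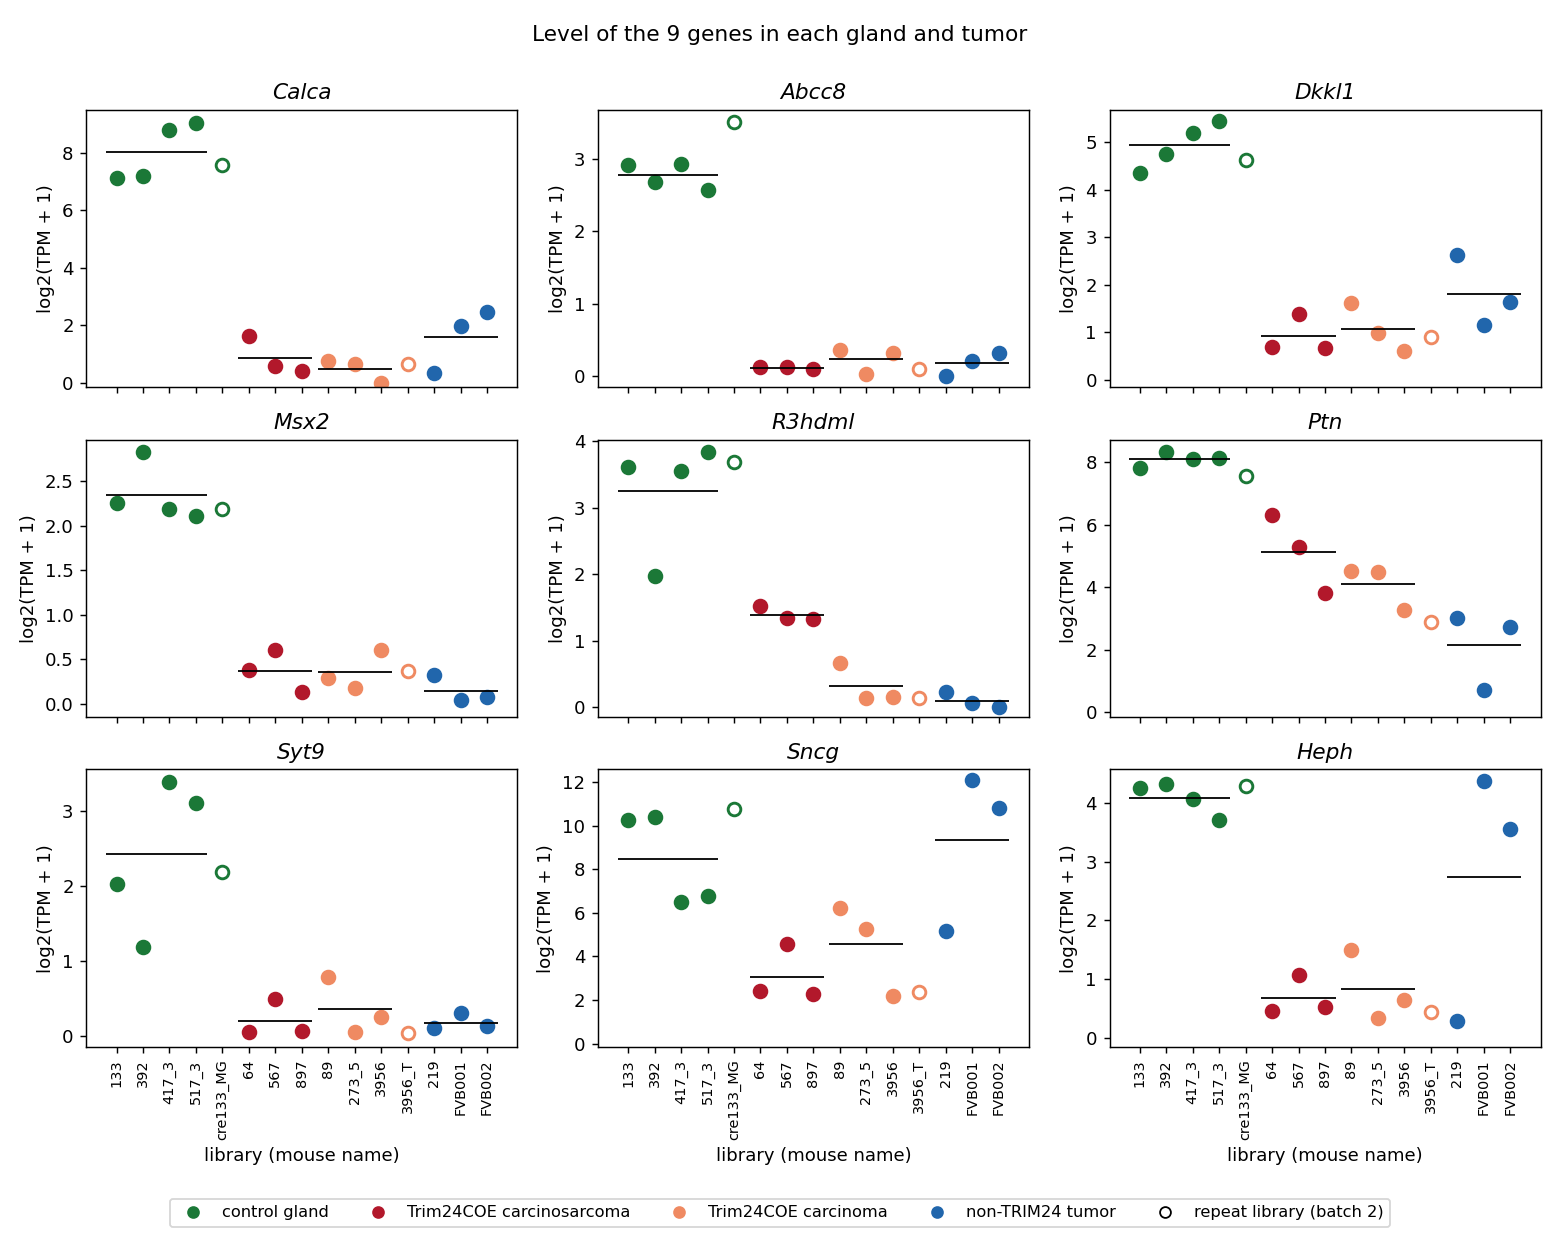
Level of each of the 9 genes as log2(TPM + 1) (vertical axis, scale set for each gene) in each library (horizontal axis, mouse names), with filled points for first libraries, open points for the batch 2 repeats and horizontal lines for group means of first libraries. Every Trim24COE tumor lies below every gland for all 9 genes, and FVB001 and FVB002 lie above every gland for Sncg and above or just below the glands for Heph.

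Calca (ENSMUSG00000030669.13, GRCm38 chr7:114631478-114636357, minus strand) showed the widest separation. It was at 138, 146, 441 and 532 TPM in glands 133, 392, 417_3 and 517_3 (mean 314 ± 202, SD, n = 4). In the 6 Trim24COE tumors it ranged from 0.00 to 2.11 TPM with a median of 0.54, and in tumors 219, FVB001 and FVB002 it was at 0.27, 2.96 and 4.50 TPM. The groups did not overlap, and the lowest gland was 65.3 times the highest Trim24COE tumor and 30.6 times the highest non-TRIM24 tumor. On the log2(TPM + 1) scale the fitted difference was -7.37 (SE 0.45) for Trim24COE tumors and -6.24 (SE 0.75) for non-TRIM24 tumors, the latter with a batch term. The repeat library of tumor 3956, the tumor listed at 0, had 0.56 TPM. A gene-level value does not separate the calcitonin from the CGRP transcript. The 14 neuroendocrine markers listed summed to 36.5 to 99.0 TPM in the glands and to 165 to 846 TPM in the Trim24COE tumors, with 1 of 3 tested higher and 1 lower. Of the 14, 8 were under 1 TPM in every library, so these sums rest on few genes. In the 4 glands the granin genes Chga and Chgb were at 0.01 to 0.2 TPM and 0.04 to 0.21 TPM, and Syp, the gene of a vesicle membrane protein, was at 12.8 and 28.75 TPM in glands 133 and 392 and at 1.29 and 1.18 TPM in 417_3 and 517_3. In the 6 Trim24COE tumors Chga was at 0.06 to 1.42 TPM, Chgb at 0.01 to 0.02 TPM and Syp at 0.47 to 1.62 TPM. The part of such cells in the Calca values was not tested.

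Ptn (ENSMUSG00000029838.11, chr6:36714929-36810220, minus strand) was the most even of the abundant members in the glands, at 224, 323, 274 and 277 TPM (mean 275 ± 40.3, SD, n = 4). It remained measurable in every Trim24COE tumor, from 8.59 to 78.5 TPM with a median of 21.7. Tumors 219, FVB001 and FVB002 had 7.11, 0.62 and 5.61 TPM. All 9 tumors were below all 4 glands, and the non-TRIM24 values, all from batch 2, lay near or below the lowest Trim24COE tumor, 3956, which had 8.59 TPM in batch 1 and 6.42 TPM in its batch 2 repeat. The fitted difference from glands was -3.48 (SE 0.49) for Trim24COE tumors and -5.15 (SE 0.77) for non-TRIM24 tumors. The glands with little fat and those with much fat had the same mean Ptn level to within 1.01 times.

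Promoter sequences are shown for Calca, Ptn and Sncg, the members with the largest separation, an even level in glands and a level that followed fat content. Each runs 5′ to 3′ from 250 bases before to 50 bases after the annotated start, from RefSeq on GRCm38.p6, where 7 of the 9 genes were matched by symbol (not Abcc8 and Heph). Capitals mark exact matches on either strand to the CCAAT box, the GC box GGGCGG, the nuclear receptor element AGGTCA, the TATA box TATAAA, the cyclic AMP response element TGACGTCA or the E-box CACGTG. The windows lie at chr7:114636308-114636607 (minus strand) for Calca, chr6:36810130-36810429 (minus strand) for Ptn and chr14:34374620-34374919 (minus strand) for Sncg.
Calca: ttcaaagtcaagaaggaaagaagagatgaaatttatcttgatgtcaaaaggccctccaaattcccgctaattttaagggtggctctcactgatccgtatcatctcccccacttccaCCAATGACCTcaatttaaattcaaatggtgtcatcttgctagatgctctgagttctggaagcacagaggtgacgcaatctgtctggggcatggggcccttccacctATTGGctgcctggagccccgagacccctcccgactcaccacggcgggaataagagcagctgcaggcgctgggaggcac
Ptn: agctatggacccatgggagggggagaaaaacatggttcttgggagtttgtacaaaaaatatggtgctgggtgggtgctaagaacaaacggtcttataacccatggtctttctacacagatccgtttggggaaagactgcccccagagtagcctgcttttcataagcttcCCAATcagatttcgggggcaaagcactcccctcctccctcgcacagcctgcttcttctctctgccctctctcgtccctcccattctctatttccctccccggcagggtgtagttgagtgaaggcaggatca
Sncg: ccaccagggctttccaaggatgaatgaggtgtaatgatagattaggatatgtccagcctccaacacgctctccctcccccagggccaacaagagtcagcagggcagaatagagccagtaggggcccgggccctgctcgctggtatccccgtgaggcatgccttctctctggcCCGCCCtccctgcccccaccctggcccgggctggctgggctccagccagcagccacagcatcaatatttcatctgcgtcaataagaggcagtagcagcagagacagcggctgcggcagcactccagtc
The Calca window held CCAAT at -134 and, on the other strand, at -28, and the first of these overlaps by 1 base with a reverse match to AGGTCA at -130. Ptn had CCAAT at -81 and Sncg had GGGCGG on the other strand at -78. Over the 7 windows the CCAAT box was found in 4, the GC box in 3 and the nuclear receptor element in 2, beside 37.4%, 35.7% and 16.3% of all 32851 promoters in the table. The TATA box, cyclic AMP response element and E-box matched in 0 of the 7, beside 13.6%, 1.79% and 7.15% of all promoters. None of the motifs searched was shared by all 7 windows, and a match is a description of the sequence only.

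Dkkl1 (ENSMUSG00000030792.8, chr7:45207519-45212147, minus strand) was at 19.4, 26.0, 35.7 and 42.5 TPM in the glands (mean 30.9 ± 10.3, SD, n = 4). The Trim24COE tumors ranged from 0.52 to 2.05 TPM with a median of 0.80, and tumors 219, FVB001 and FVB002 had 5.14, 1.22 and 2.13 TPM. The groups did not overlap, and here tumor 219, the one with little fat, was the highest of the 9 tumors. The fitted differences were -3.95 (SE 0.31) and -2.88 (SE 0.50).

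R3hdml (ENSMUSG00000078949.2, chr2:163492318-163502612, plus strand) had the smallest margin after Sncg. Its gland values were 11.3, 2.92, 10.8 and 13.3 TPM (mean 9.58 ± 4.57, SD, n = 4), and gland 392, the lowest, was 1.57 times the highest Trim24COE tumor. Carcinosarcomas 64, 567 and 897 had 1.86, 1.53 and 1.5 TPM, and carcinomas 89, 273_5 and 3956 had 0.59, 0.10 and 0.11 TPM. All 3 carcinosarcomas were above all 3 carcinomas, and the 3 non-TRIM24 tumors, at 0.17, 0.04 and 0.00 TPM, were near the lower end. The fitted differences from glands were -2.39 (SE 0.43) for Trim24COE tumors and -3.36 (SE 0.49) for non-TRIM24 tumors.

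Msx2 (ENSMUSG00000021469.9, chr13:53466884-53473074, minus strand), the transcription factor of the set, was at 3.77, 6.11, 3.54 and 3.31 TPM in the glands (mean 4.18 ± 1.3, SD, n = 4). The Trim24COE tumors lay between 0.09 and 0.52 TPM with a median of 0.26, and tumors 219, FVB001 and FVB002 had 0.25, 0.03 and 0.05 TPM. Gland 392 was highest, tumors of both kinds lay under 1 TPM, and the groups did not overlap. The fitted differences of -1.98 (SE 0.22) and -2.11 (SE 0.30) understate the ratio of a gene this low, because 1 TPM was added before the log. With 0.1 TPM added they were -3.53 (SE 0.49) and -4.39 (SE 0.73).

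Abcc8 (ENSMUSG00000040136.10, chr7:46104523-46180033, minus strand) had the narrowest range among glands, at 6.53, 5.41, 6.58 and 4.93 TPM (mean 5.86 ± 0.824, SD, n = 4). In the Trim24COE tumors it ranged from 0.02 to 0.28 TPM with a median of 0.09, and tumors 219, FVB001 and FVB002 had 0.00, 0.16 and 0.25 TPM. No tumor of either kind came near a gland, the lowest gland being 17.6 times the highest Trim24COE tumor. The fitted differences were -2.60 (SE 0.19) and -2.99 (SE 0.29). The repeat library of gland 133 gave 10.3 TPM, 1.58 times its first library and the largest such ratio among the 9 genes.

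Syt9 (ENSMUSG00000062542.11, chr7:107370728-107548656, plus strand) was at 3.08, 1.27, 9.51 and 7.68 TPM in the glands (mean 5.38 ± 3.85, SD, n = 4). The Trim24COE tumors ranged from 0.03 to 0.73 TPM with a median of 0.115, and tumors 219, FVB001 and FVB002 had 0.07, 0.23 and 0.09 TPM. The groups did not overlap, although gland 392 exceeded tumor 89 by only 1.74 times. The fitted differences were -2.15 (SE 0.40) and -1.98 (SE 0.55).

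Sncg (ENSMUSG00000023064.4, chr14:34370274-34374789, minus strand) varied more among glands than any other member. It was at 1253 and 1340.05 TPM in the fat-rich glands 133 and 392 and at 89.2 and 108 TPM in the fat-poor glands 417_3 and 517_3, so the mean ± SD over all 4 was 698 ± 693 TPM. The Trim24COE tumors ranged from 3.48 to 73.4 TPM with a median of 13.4. All 6 were below every gland, but tumor 89, the Trim24COE tumor with the highest adipocyte sum, was only 1.22 times below gland 417_3. Tumor 219 had 35.6 TPM, whereas FVB001 and FVB002 had 4379 and 1808 TPM, above every gland.

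Heph (ENSMUSG00000031209.14, chrX:96455359-96574485, plus strand) was at 18.0, 19.1, 15.7 and 12.1 TPM in the glands (mean 16.2 ± 3.10, SD, n = 4) and from 0.27 to 1.84 TPM in the Trim24COE tumors with a median of 0.50. Glands and Trim24COE tumors were well apart, by 6.56 times at their closest. Tumors 219, FVB001 and FVB002 had 0.22, 19.6 and 10.7 TPM. Tumor 219 was about as low as the lowest Trim24COE tumor, FVB001 was above every gland and FVB002, at 10.7 TPM, was just below the lowest gland. A processed pseudogene, Rpl17-ps8, lies within the gene, and Hsf3 overlaps it on the other strand at a mean of 0.553 TPM in glands.

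For Sncg and Heph the fitted differences depended on which non-TRIM24 tumors were used. Against glands the Trim24COE difference was -4.67 (SE 1.05) for Sncg and -3.33 (SE 0.29) for Heph, and the non-TRIM24 difference was 0.34 (SE 2.11) and -1.32 (SE 0.91). With tumor 219 as the single non-TRIM24 tumor, an alternative chosen after the adipocyte levels had been seen, these became -3.84 (SE 2.23) for Sncg and -3.77 (SE 0.56) for Heph. Without 219 the Heph difference was -0.10 (SE 0.47).

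Whether the members followed the fat content of the glands was read from the 4 glands side by side. Sncg was 13.2 times higher in the mean of the fat-rich than of the fat-poor glands, and Heph 1.34 times and Msx2 1.44 times higher, with no overlap between the pairs. Syt9 was 3.95 times, Calca 3.42 times and Dkkl1 1.72 times higher in the fat-poor glands, also with no overlap. R3hdml, Abcc8 and Ptn had overlapping pairs. With 2 glands of each kind, no test of these differences was made. The fat-poor glands also had the higher basal marker sums, 5220 and 5330 TPM against 423 and 577 TPM, and the higher luminal marker sums, 7510 and 7970 TPM against 2840 and 2600 TPM. Their Schwann cell and nerve sums were higher too, at 295 and 262 TPM against 96.2 and 175 TPM. Skeletal muscle markers, at 16.9 and 15.8 TPM against 509 and 3010 TPM, and fibroblast markers, at 679 and 664 TPM against 1310 and 1890 TPM, were lower in the fat-poor glands. The part of these in the members' levels was not tested.

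Sncg and the adipocyte list moved together across the glands, at 37.5, 30.9, 33.0 and 39.1 TPM of Sncg per 1000 TPM of the list in glands 133, 392, 417_3 and 517_3. The same ratio was 71.4 and 59.1 in FVB001 and FVB002 and 106 in tumor 219, and it ranged from 15.5 to 62.3 in the Trim24COE tumors, which spans all 4 glands. Against Adipoq alone the glands were unequal, with 0.73 and 0.689 TPM of Sncg per TPM of Adipoq in the fat-rich and 8.79 and 10.01 in the fat-poor glands. This ratio was 1.077 and 1.581 in Trim24COE tumors 89 and 273_5, which had more Adipoq but less Sncg than the fat-poor glands. The cause was not tested. Much of the list's sum in the fat-poor glands was Fabp4, at 1644 and 1830.2 TPM, a fatty acid binding protein that is not limited to adipocytes. Heph did not keep such a ratio, with 0.539 and 0.441 TPM per 1000 TPM in the fat-rich and 5.82 and 4.39 in the fat-poor glands.

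**Figure D2:**
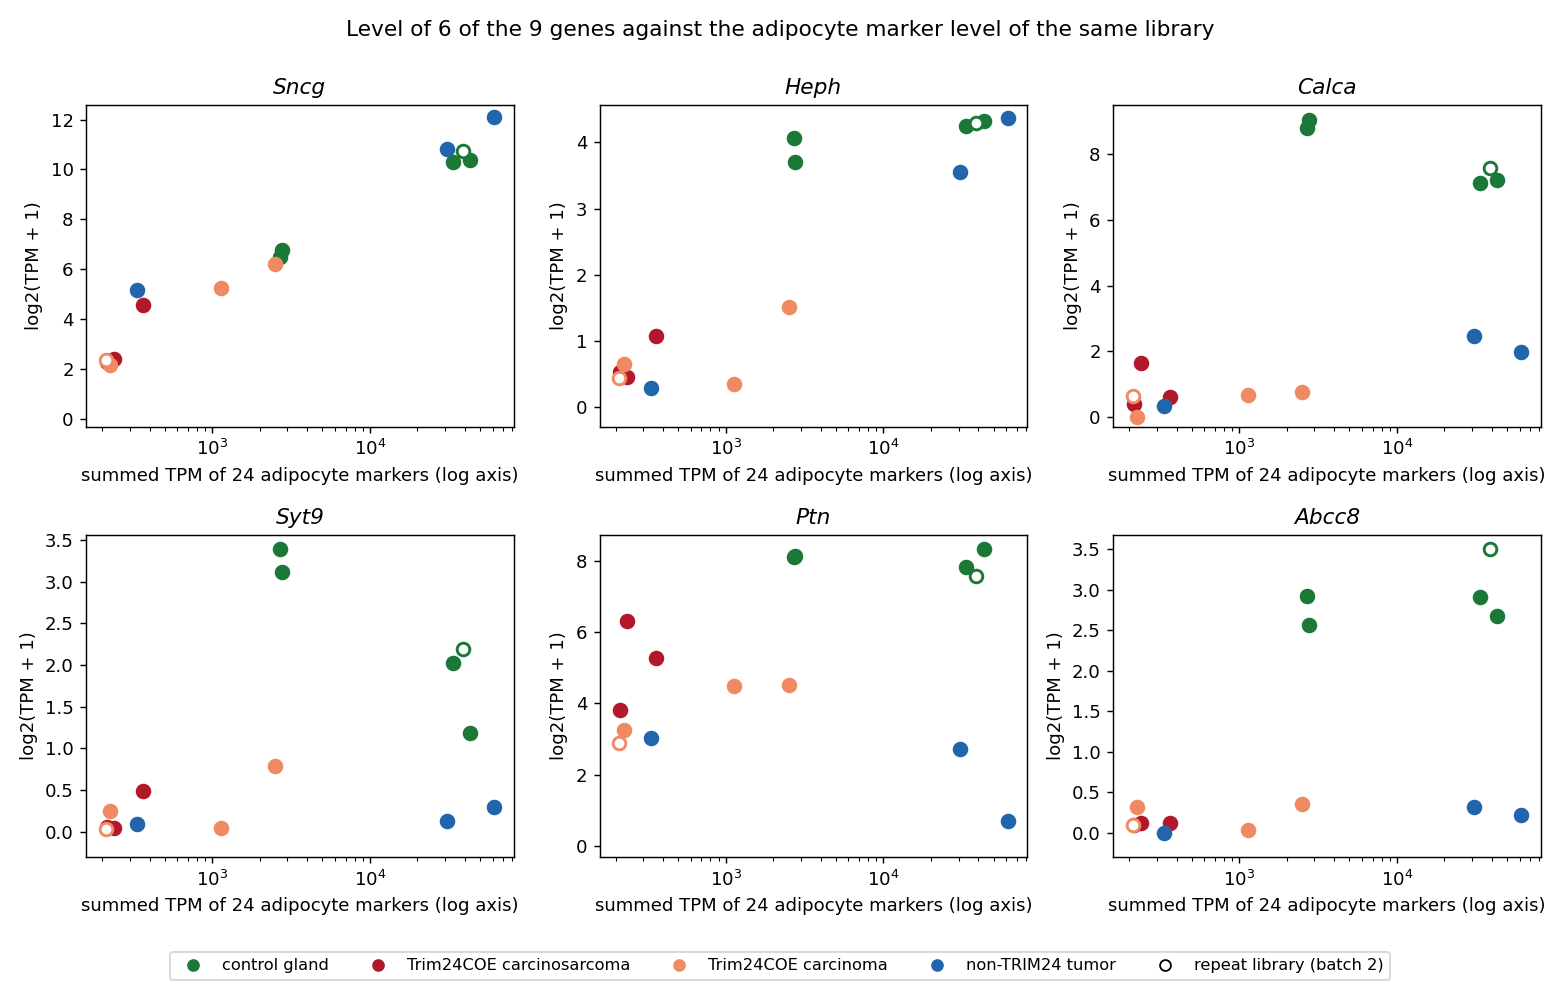
Level of 6 of the genes as log2(TPM + 1) (vertical axis) against the summed TPM of 24 adipocyte markers in the same library (horizontal axis, log scale), with colours for the 4 groups and open points for repeat libraries. Sncg climbs with the adipocyte sum over glands and tumors alike, while Calca, Syt9, Ptn and Abcc8 are low in FVB001 and FVB002 although these have adipocyte sums of 61300 and 30600 TPM.

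Ptn, Calca, Abcc8, Syt9, Msx2, R3hdml and Dkkl1 were low in tumors with and without fat. In FVB001, the library with the highest adipocyte sum of all 15, Ptn was at 0.62 TPM, the lowest of any library. With the mean of the adipocyte list as a covariate the Trim24COE difference of these 7 genes moved little or grew, to -8.32 (SE 0.49) for Calca, -2.52 (SE 0.26) for Abcc8 and -2.80 (SE 0.50) for Syt9. It became -4.07 (SE 0.44) for Dkkl1, -1.82 (SE 0.30) for Msx2, -3.09 (SE 0.54) for R3hdml and -3.63 (SE 0.71) for Ptn. For Heph it was -2.89 (SE 0.35). For Sncg it shrank from -4.67 to -1.49 (SE 0.53), the only one of the 9 that moved by over 1.5 times.

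**Figure D3:**
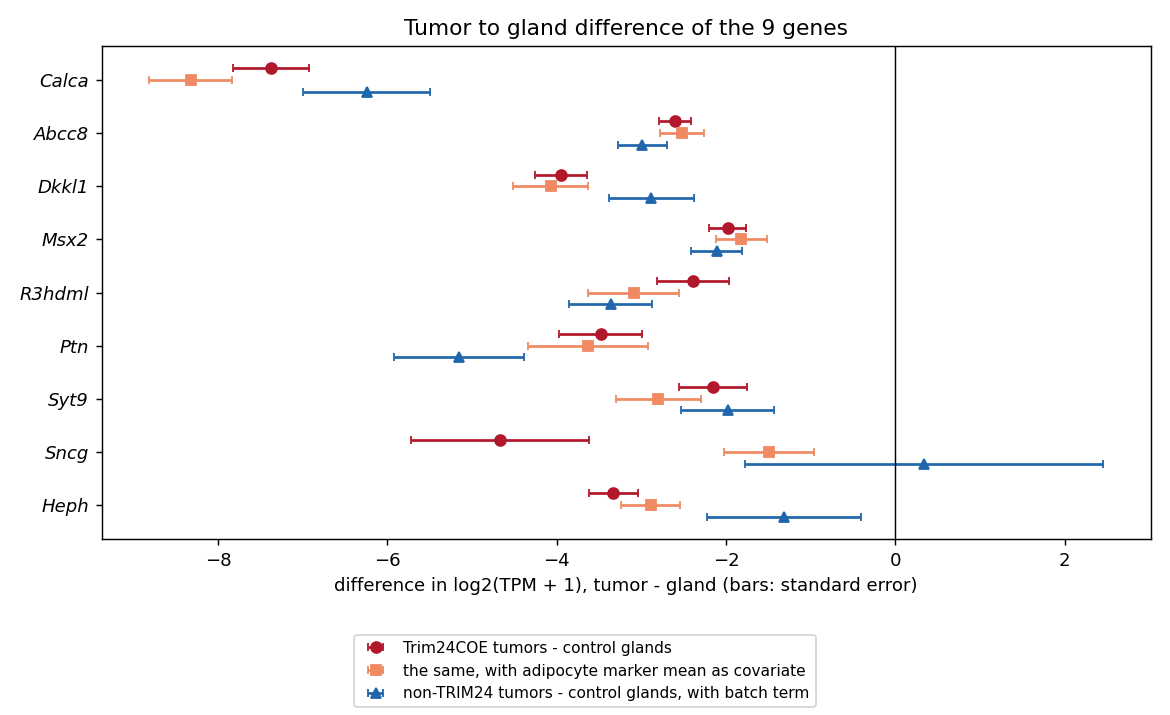
Difference in log2(TPM + 1) between tumors and control glands (horizontal axis, bars are standard errors) for each of the 9 genes (vertical axis), for Trim24COE tumors, for the same with an adipocyte covariate, and for non-TRIM24 tumors with a batch term. The covariate moves Sncg from -4.67 to -1.49, and the non-TRIM24 estimate of Sncg, 0.34, has an SE of 2.11.

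Other cell types also moved between glands and Trim24COE tumors. By limma's test with Benjamini-Hochberg adjustment, 12 of 24 adipocyte markers, 4 of 13 luminal, 6 of 11 hormone-sensing luminal, 4 of 12 basal, 5 of 12 Schwann cell and nerve and 5 of 10 endothelial markers tested were lower, and 9 of 10 macrophage, 3 of 10 fibroblast, 3 of 11 hormone-sensing luminal and 1 of 12 Schwann cell and nerve markers were higher, beside 9.13% of all genes lower and 7.96% higher. Krt5, a basal keratin, ranged from 0.22 to 3.57 TPM in 5 of the Trim24COE tumors and was at 961 TPM in tumor 89, as against 40.8 to 409 TPM in glands. Krt14, another basal keratin, ranged from 7.92 to 77.7 TPM in the same 5 tumors. Of these, 64 and 273_5 were above both fat-rich glands (34.2 and 50.7 TPM). Krt14 was at 1153 TPM in tumor 89 and at 987 and 1064 TPM in the fat-poor glands. The hormone-sensing list was split. Pgr, its progesterone receptor gene, ranged from 0.05 to 0.61 TPM in the 6 tumors and from 2.71 to 12.3 TPM in glands, but the sum of the list was 660 to 1580 TPM in glands and 2230 to 7140 TPM in tumors, with Areg, Ly6a and S100a6 called higher. The part of these cell types in the members' values was not tested. Tumor 89, with luminal and basal sums of 6770 and 3750 TPM, had the highest values of the Trim24COE tumors for Sncg (73.4 TPM), Dkkl1 (2.05 TPM) and Heph (1.84 TPM). It was also listed highest for Syt9 at 0.73 TPM and Abcc8 at 0.28 TPM, and second for Calca at 0.68 TPM, levels under 1 TPM at which small differences give no order.

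The contrast between carcinosarcomas and carcinomas was not used in choosing the genes, and Ptn and Sncg had enough signal in both classes of these 6 tumors to be tested. The study's tumor list has a column of calls based on RNA-seq, which names a class for 64, 89, 567, 897 and 273_5. Whether the class labels were set apart from these expression data is therefore not known. By limma with Benjamini-Hochberg adjustment 0 of the 2 were called, beside 0.698% of 14193 genes, and 0 had an unadjusted p under 0.05, beside 15% of these genes. R3hdml reached 1 TPM in the 3 carcinosarcomas alone and so passed the filter only through the class where it was higher. It is given without the limma test, at 1.86, 1.53 and 1.5 TPM in carcinosarcomas 64, 567 and 897 and at 0.59, 0.10 and 0.11 TPM in carcinomas 89, 273_5 and 3956. An exact two-sided permutation test of R3hdml over these 6 tumors gave p = 0.1, the smallest that 3 against 3 allows. The classes did not overlap for R3hdml, as for 21.8% of all genes. Ptn differed by 1.05 (SE 0.66, limma adjusted p = 0.49) and Sncg by -1.48 (SE 1.10, limma adjusted p = 0.557), with overlapping classes. Calca, Abcc8, Dkkl1, Msx2, Syt9 and Heph were too low in these tumors to be tested, and their classes overlapped.

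The partner genes of the members, 90 by list, were looked at for whether pathway neighbours moved too. Of 62 tested between Trim24COE tumors and glands, 7 were lower (11.3%, beside 9.13% of all genes) and 6 higher (9.68%, beside 7.96%), with a median log2 difference of 0.1 against -0.04 over all genes. Called partners lay on both sides of 0.

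Kcnj11, which encodes the Kir6.2 pore that pairs with SUR1, was the lower gene closest in role to a member. It was at 2.74, 1.93, 3.18 and 2.41 TPM in the glands and from 0.04 to 0.76 TPM in the Trim24COE tumors, with tumors 219, FVB001 and FVB002 at 0.03, 0.05 and 0.04 TPM. No tumor overlapped a gland. The difference was -1.42 for Trim24COE tumors (SE 0.22). Kcnj11 and the synaptotagmin Syt3 were the 2 tested partners that reached 1 TPM in glands only, so that under the filter no call but a lower one was open to them. The lower partners Syt7, Syt15, Ltk and Crispld1 reached 1 TPM in all 4 glands but in only 1 Trim24COE tumor each. They thus also passed the filter through the glands. Without the filter their limma adjusted p were 0.0188, 0.0434, 0.0378 and 0.0781, so that Crispld1 was no longer called. For Kcnj11 the limma adjusted p was 0.00228 with the filter and 0.0172 without it over 39693 genes, of which 4.76% were called. By lower annotated coordinate Kcnj11 also lies 10.6 kb from Abcc8 and is the nearest tested gene on that side. Of the other KATP genes, Abcc9 (SUR2) differed by 0.17 (adjusted p = 0.742) and Kcnj8 (Kir6.1) by 0.77 (adjusted p = 0.161), which were not called. SUR1 with Kir6.2 is the pancreatic form of the channel and SUR2 with Kir6.1 the vascular form.

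Among synaptotagmins 3 of 8 tested were lower and 1 higher. Syt7, a calcium sensor of slow exocytosis, ranged from 2.63 to 6.52 TPM in glands and from 0.07 to 1.5 TPM in Trim24COE tumors (difference -1.78, SE 0.30, limma adjusted p = 0.00311). Syt3 ranged from 1.76 to 2.54 and from 0.17 to 0.42 TPM (-1.29, SE 0.18, adjusted p = 0.0107 without the filter), and Syt15 from 2.16 to 4.90 and from 0.19 to 2.24 TPM (-1.53, SE 0.33, adjusted p = 0.0101). Syt8 moved the other way, from 0.63 to 1.27 TPM in glands against 4.39 to 110 TPM in the tumors (3.24, SE 0.82, adjusted p = 0.0213), and that call was lost without gland 133, 417_3 or 517_3. It was also lost without the filter (adjusted p = 0.0591), which Syt8 passed through the tumors, with 1 gland and 6 tumors at 1 TPM. Of 13 SNARE genes tested, which form the vesicle fusion machinery, Vamp2 was lower (-1.58, SE 0.35, adjusted p = 0.0115) and Stx1a higher (1.14, SE 0.33, adjusted p = 0.038). The Stx1a call was kept in 3 of the 10 fits that left out a mouse.

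The receptors and relatives of the secreted members mostly did not pass the test. For Ptn, Ltk, a receptor tyrosine kinase of the ALK family, was lower (-1.66, SE 0.34, limma adjusted p = 0.0086), and the heparan sulfate proteoglycan Sdc1 was higher (2.91, SE 0.60, adjusted p = 0.00862), at 111 to 729 TPM in tumors against 15.9 to 69.5 TPM in glands. The paper had already reported Ltk, with the members Sncg and Syt9, as lower in Trim24COE tumors by qRT-PCR. The related growth factor Mdk (0.41, SE 0.85, adjusted p = 0.778) and the receptor Ptprz1 (-0.14, SE 0.76, adjusted p = 0.92) were not called, and Alk was at 0.2 TPM or less in every gland and first-library tumor. For Calca, the vascular peptide Adm was higher (1.33, SE 0.34, adjusted p = 0.0235), a call lost without gland 133, 417_3 or 517_3, and Calcrl, the CGRP receptor subunit, was at -0.82 (SE 0.32, adjusted p = 0.0998). Of the CAP superfamily, Glipr1 was higher (2.90, SE 0.46, adjusted p = 0.00248) and Crispld1 lower (-1.3, SE 0.33, adjusted p = 0.0228), the latter lost without gland 417_3 or 517_3 and without the filter. By limma 0 of 2 Dickkopf and 0 of 4 Msx and Dlx genes tested were called, with 1 and 2 of them at an unadjusted p under 0.05, beside 32.6% of all genes, and Msx1 was at -0.01 (SE 0.55, adjusted p = 0.992). At that unadjusted limit were also 5 of 7 calcitonin and CGRP, 3 of 10 pleiotrophin and 2 of 5 CAP superfamily genes tested.

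For Heph, 1 of 9 iron genes tested was called, the ferritin light chain Ftl1, which was higher (1.17, SE 0.31, limma adjusted p = 0.027) but kept in only 4 of the 10 fits that left out a mouse. Slc40a1, which encodes ferroportin, was at 0.18 (SE 0.29, adjusted p = 0.717), and Cp, the soluble ferroxidase, at -0.97 (SE 0.61, adjusted p = 0.293). With the adipocyte covariate 6 of the 13 calls held, those of Kcnj11, Syt3, Syt7, Ltk, Crispld1 and Glipr1. Without gland 417_3 and without gland 517_3 there were 8 calls each. Over all genes the covariate took the calls from 2597 to 779 of 15196. Without gland 417_3 there were 1874 calls among 15664 genes, and without gland 517_3 there were 1779 among 15783.

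**Figure D4:**
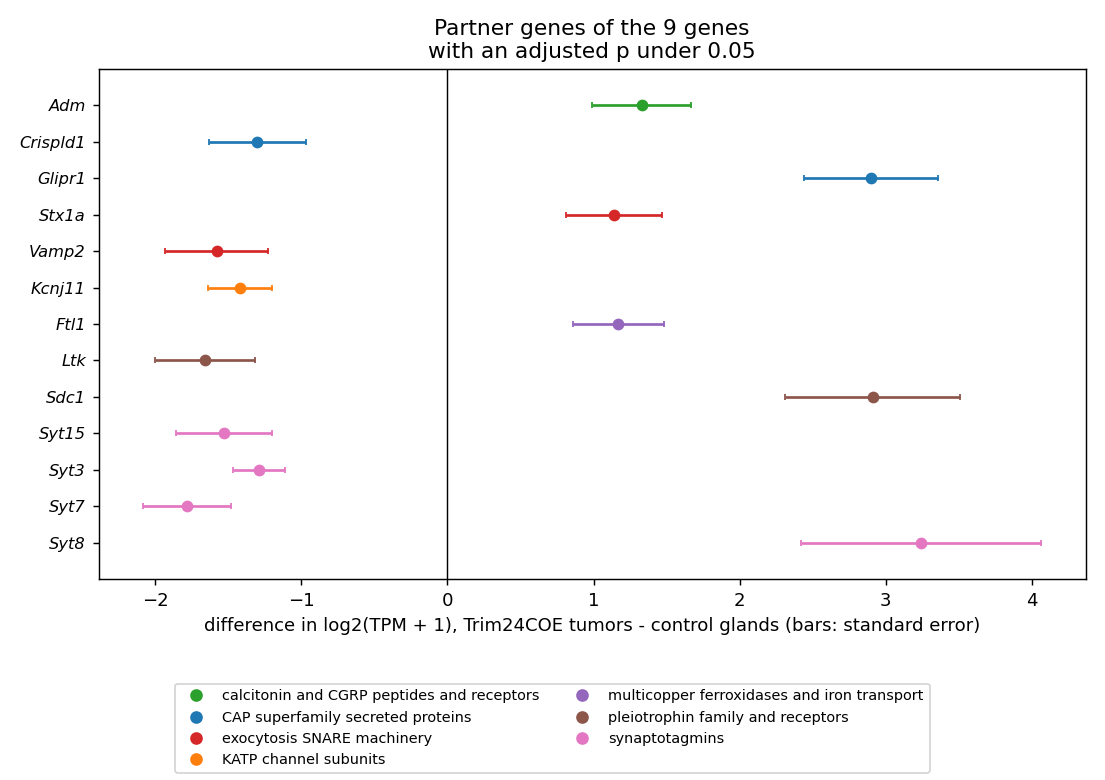
Difference in log2(TPM + 1) between Trim24COE tumors and control glands (horizontal axis, bars are standard errors) for the 13 partner genes with a limma adjusted p under 0.05 among 62 tested (vertical axis), coloured by list. The points lie on both sides of 0, with 7 lower and 6 higher.

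In the non-TRIM24 tumors 1 of 65 partner genes tested was called, beside 0.107% of all genes, and it was Kcnj11 again (-1.91, SE 0.31, limma adjusted p = 0.0343). The call was kept in 2 of 7 fits that left out a mouse and was lost without 219, FVB002, 133, 417_3 or 517_3 and without the filter, which Kcnj11 passed only through glands, although all 3 tumors lay below all 4 glands. The 3 tumors shared batch 2, and the batch term rested on the pairs of libraries of gland 133 and tumor 3956.

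Genes next to the members on the chromosome were counted as a check on position. Nearness and distance were taken between the lower annotated coordinates of the genes, whatever their strand or length. Of 90 neighbours, the 5 nearest tested genes on each side, 12 were lower (13.3%, beside 9.13% of all genes) and 7 higher (7.78%, beside 7.96%), with a median of -0.12. The closest called neighbours were Mmrn2, an endothelial matrix gene 5.2 kb from Sncg (-1.68, SE 0.34, limma adjusted p = 0.0084), Kcnj11, and Fitm2, a lipid droplet gene 25.9 kb from R3hdml (-1.75, SE 0.42, adjusted p = 0.0183). The Fitm2 call was lost with the adipocyte covariate and without gland 133 or 392 (adjusted p up to 0.291). Of the 19 called neighbours 11 were kept without each mouse in turn and 8 with the covariate, and 4 had reached 1 TPM in glands only, among them Kcnj11, Tox2 and 9530014B07Rik. Under the filter no call but a lower one was open to these 4, which are among the 12 lower. Without the filter Tox2, 289.2 kb from R3hdml, was at -2.67 (SE 0.31, limma adjusted p = 0.00237). Also without it, 9530014B07Rik, 169 kb from Msx2, was at -2.87 (SE 0.27, limma adjusted p = 0.00135). Other lower neighbours included Tph1, Flt3l, Trpm4, Fam180a and Syt15, from -3.82 to -1.02, and the higher ones Psma1, Gm4353, Emp3, Saa3, Msn, F630028O10Rik and Vsig4, from 0.61 to 4.41. Vsig4 reached 1 TPM in 5 Trim24COE tumors and 0 glands, so it passed the filter only through the tumors. Without the filter the calls of Emp3, Msn, F630028O10Rik and Vsig4 were lost (limma adjusted p = 0.0606, 0.0504, 0.103 and 0.0662). Those of Psma1, Gm4353 and Saa3 held, and of the lower ones named here Tph1 and Trpm4 were lost. Calca, Abcc8, Dkkl1 and Syt9 lie on chromosome 7, where 10.2% of 1161 tested genes were lower.

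The genes whose levels most resembled each member over the 10 libraries of batch 1 were found by Pearson correlation of log2(TPM + 1), a description in which the step between glands and tumors carries most of the likeness. Those nearest to Calca included Pecr (r = 0.988) and Cbs, and those nearest to Abcc8 included Rimklb (0.992) and Phkb. Syt9 was nearest to Slc5a1 (0.99), Slc10a6 and Mrvi1. Dkkl1 was nearest to Il17b (0.993), Cytl1 and Dpyd, and Msx2 to Bmp3 (0.991), Pllp and Kxd1. Sncg was nearest to Pccb (0.988), Cdo1 and Tspan12, and Heph to Cry2 (0.997), Cd300lg and Cyp2j9. Lower maxima were seen for Ptn, nearest to Cbr1 (0.97), Mcf2l and Cited1, and for R3hdml, nearest to Hmgcs1 (0.95), Zfp773 and Bex4. Among these, Il17b had a mean of 58.4 TPM in glands and 0.822 TPM in Trim24COE tumors, and Cited1 158 and 4.68 TPM.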

How the data were processed

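RNA-seq of whole mammary glands and tumors was analysed in 15 libraries of 13 mice. The deposited values are TPM, which per the paper's methods the authors made with RSEM and STAR on GRCm38 with GENCODE M14 after trimming. The submitters' notes also name TopHat and Cufflinks, and labels and methods differ on the RNA and library kits, so strandedness is uncertain. TPM of a library sum to 1000000, which hides depth, and are given to 0.01 TPM.

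The 9 genes, partner lists, marker lists and alternatives were chosen with earlier results of these data known. Partner and marker lists were written from general knowledge. Linear models of each gene (limma 3.58.1, R 4.3.3, with eBayes and a variance trend) were made on log2(TPM + 1), two-sided, with Benjamini-Hochberg adjustment over all genes and a threshold of 0.05, for genes at 1 TPM or more in at least 4 libraries (3 between tumor classes and for non-TRIM24 tumors). Trim24COE comparisons used the 10 batch 1 libraries. The non-TRIM24 comparison used all 15 libraries with a batch term, where libraries are not mice. P-values of the other comparisons cover the spread between the mice sampled. In the non-TRIM24 fit the repeat libraries counted as further samples, with no blocking by mouse. With mouse as a block in limma 119 genes were called in place of 18. The SE of Abcc8 was then 0.47 in place of 0.29, and that of Calca 0.61 in place of 0.75. Fits were tested on simulated data. Exact permutation tests used scipy in Python.

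Named are all 9 genes, every listed partner past the threshold and every called neighbour, and the 3 genes most correlated with each member, except for some that are not reported here. Partners and keratins given without a call were chosen after their values were seen, as were Adipoq, Plin1, Cidec, Lep, Fabp4, Trim24, Pgr, Chga, Chgb and Syp. Positions come from GENCODE M21 on GRCm38, where all 9 versioned gene IDs matched.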

Additional observations from a re-analysis of the deposited data

Results flagged for a closer look

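In 18 sets of values (the 9 genes, each in the 4 control glands and in the 6 Trim24COE tumors) 2 had a library whose gap to the nearest other exceeded Dixon's 95% limit, where chance alone gives about 1 in 20. Calca was at 2.11 TPM in carcinosarcoma 64, against 0.68 TPM or less in the other 5 Trim24COE tumors. Msx2 was at 6.11 TPM in gland 392, against 3.31 to 3.77 TPM in the other 3 glands. Both values left their groups apart from the other group.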

How the results depend on the processing

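No paired analysis was possible because the replicate names are mouse names and no number is shared between groups. The 9 genes were chosen for being low in these tumors against these glands, so the sign of their differences is no independent support. Over 15 alternatives each of the 9 genes kept a negative Trim24COE difference, and with non-TRIM24 tumors 8 of the 9 did over 12 alternatives. The exception was Sncg, whose 0.34 turned to -3.84 with tumor 219 alone (chosen after seeing the data) and ranged from -1.02 (without FVB001) through -0.39 (without FVB002) to 3.68 (without gland 133). The count of partner genes called in Trim24COE tumors was 13 and became 6 with the adipocyte covariate, 9 without a filter and 8 to 18 when 1 mouse was left out, with the lowest count without 417_3 or 517_3. Over all genes 2597 of 15196 were called, and 779 with the covariate. Without a filter 1890 of 39693 genes were called, and 1779 to 2911 genes when 1 mouse was left out. In non-TRIM24 tumors the count of 1 became 9 without the batch term, 0 with a pseudocount of 0.1 TPM and 0 without a filter, and was 0 to 1 when 1 mouse was left out. Over all genes 18 of 16775 were called there, 1862 without the batch term and 5 with that pseudocount. Without a filter 19 of 40019 genes were called, and 3 to 56 genes when 1 mouse was left out. The cause was not tested. No member was called between tumor classes under any of 10 alternatives. The 4 glands, 2 of each fat level, and the unknown read depth limit what low values can show, and small differences between tumor values under 1 TPM give no order.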

Other observations

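Several listed relatives of the 9 genes were at 1 TPM in too few libraries to be tested, and the values of some of them, chosen after they were seen, stood out in single libraries. Dlx1 and Dlx2, homeobox genes related to Msx2, were at 16.1 and 9.15 TPM in carcinoma 273_5, while Dlx1 was at 0.15 TPM or less and Dlx2 at 0.55 TPM or less in the first libraries of the 4 glands and the other 8 tumors, with Dlx1 at 0.37 TPM in the repeat of 3956. Msx2 itself was at 0.13 TPM in that tumor. Pi15, a CAP superfamily gene like R3hdml, was at 28.3 TPM in carcinoma 89 and at 0.45 TPM or less in the glands.

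Syt1, a synaptotagmin like Syt9, was at 0.95 and 0.27 TPM in the fat-rich glands 133 and 392 and at 4.88 and 3.18 TPM in the fat-poor glands 417_3 and 517_3, and was at 0.22 TPM or less in all 9 tumors, as Syt9 was low there. These are single values with no test.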
